A study of Mus musculus with 6 samples.

Results

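The 10 genes described here, *Tbx2*, *Tbx3*, *Tbx4*, *Tbx5*, *Tbx15*, *Tbx18*, *Pitx1*, *Shox2*, *Prrx1* and *Prrx2*, encode transcription factors that lay out the limb and act in its mesenchyme. They were chosen by name, through the Ensembl identifier of each gene, with earlier results of these data known. The rule itself uses no measured value. All 10 were found among the 22032 identifiers of the mouse expression matrix. T-box proteins bind DNA through a shared domain called the T-box, and the others carry a homeodomain. In the limb bud, *Tbx5* marks the forelimb field and *Tbx4* and *Pitx1* mark the hindlimb field, where each helps to start outgrowth or to set limb type. *Shox2* and the *Prrx* genes act in the mesenchyme that condenses into cartilage, and *Tbx15* and *Tbx18* shape the skeleton in overlapping domains.

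RNA-seq was done on chondrocytes sorted from the mouse knee at an embryonic and an adult stage, with 3 biological replicates each. Cells of both stages were negative for the endothelial, leukocyte and erythroid markers CD31, CD45 and Ter119 and for alkaline phosphatase (ALP), and positive for the BMP receptor BMPR1B. The embryonic cartilage is labelled 16.5 wks, and the results text of the study gives day E16.5 of gestation. The adult mice were 2 month old B6 males. The sex and strain of the embryos and the number of animals behind a sample were not given in the sources used here, so stage and these properties cannot be told apart. The labels name no edited gene and no agent in either group.

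Values are in TPM, the number of a gene's transcripts per 1000000 transcripts, a level per transcript length that can be compared between genes, and the sequencing depth is unknown from the matrix. The 6 samples each summed to 1000000 TPM, with 7314 to 8294 identifiers at 0. Correlations of log2(TPM + 1) across genes, which are not independent replicates, ran from 0.9067 to 0.9551 within a stage and from 0.7386 to 0.7654 between stages. The 20 highest genes took 10.71% to 11.06% of an embryonic sample and 14.58% to 17.7% of an adult sample. Differences between stages were tested with limma on log2(TPM + 1) over the 13125 genes whose mean reached 1 TPM, and a gene was called at a Benjamini-Hochberg adjusted p under 0.05. A fold change is given on this scale, adult minus embryonic, and understates the change of low genes. The median over all genes tested was 0.16. It was 0.02 after median-of-ratios scaling and 0.25 after rescaling without the 20 highest genes.

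Against the label of knee cartilage, all 8 chondrocyte markers were detected well enough to be tested, with a sum of 19102 to 20426 TPM in the embryonic and 8529 to 11624 TPM in the adult samples. Limma called 4 of these lower in the adult and 2 higher, and did not call the other 2. The shares over all genes tested, to set beside the counts of each marker list, were 21.4% lower and 23.9% higher. *Col2a1*, the main cartilage collagen, carried most of the sum (14154 to 15251 against 3166 to 7084 TPM). *Col9a1* was at 1913 to 1946 against 27.2 to 64.3 TPM and *Matn3* at 181 to 234 against 1.11 to 3.65 TPM, while *Sox9* and *Comp* were higher. The 9 tendon and fibroblast markers summed to 11754 to 13475 TPM in the embryonic samples and 612 to 1361 TPM in the adult samples. Of these 9, 6 were lower in the adult (66.7%, against 21.4% of all genes tested) and none higher, and their median was -3.75. None of them was at 0 in all samples of a stage, and *Col1a1*, the main collagen of tendon and bone, was at 4862 to 5971 TPM against 170.4 to 637 TPM. Pericyte markers summed to 252 to 268 against 175 to 192 TPM, with 4 of 5 lower and *Pdgfrb* higher in the adult. Osteoblast markers summed to 26.9 to 60.8 against 284 to 432 TPM, with 3 of 5 higher (*Bglap*, *Ibsp* and *Alpl*) and *Dmp1* lower. *Bglap* was at 0 in the 3 embryonic samples, and *Ibsp* carried most of the adult sum (235 to 316 TPM). *Alpl*, the gene of the ALP that both sorts selected against, was at 14.4 to 17.9 against 32.7 to 38.6 TPM. Muscle markers summed to 47.1 to 64.2 against 1.79 to 8.83 TPM, with *Ckm* at 0 in all embryonic and *Myog* in all adult samples. Of 4 tested, 1 was lower, *Des*, which carried most of the embryonic sum (46.0 to 50.6 TPM). The other 3 tested were not called. Endothelial markers summed to 10.6 to 23.0 against 3.79 to 10.8 TPM, and 1 of 2 tested was lower. This was *Tek*, at 9.21 to 19.0 against 0.121 to 0.889 TPM. *Pecam1*, the gene of CD31, went the other way with all adult values above (1.29 to 1.75 against 2.79 to 6.87 TPM) and was not called. Leukocyte markers summed to 5.31 to 13.7 against 19.0 to 66.5 TPM, and 1 of 2 tested was higher. Skin markers summed to at most 0.567 TPM. In these bulk samples, fewer cells of a type and less RNA per cell cannot be told apart, and the part that the markers moving with stage have in the results below was not tested.

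All 10 genes passed the filter on low values. In the adult samples 4 of them were lower (*Tbx2*, *Tbx5*, *Tbx15* and *Shox2*) and 0 were higher, a share of 40.0% lower. Over all genes tested 45.3% were called, 21.4% lower and 23.9% higher. The median difference of the 10 was -0.58 on the log2 scale. The 3 adult values lay below the 3 embryonic values for 5 genes, the 4 called and *Tbx4*, where 25.9% of all genes tested did so. None of the 10 lay wholly above, where 30.7% of all genes did. Their summed level was 487 to 523 TPM in the embryonic and 346 to 398 TPM in the adult samples. The T-box genes *Tbx2*, *Tbx5* and *Tbx15* were called, and *Tbx3*, *Tbx4* and *Tbx18* were not. Of the homeobox genes, *Shox2* was called, and *Pitx1*, *Prrx1* and *Prrx2* were not.

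**Figure D1:**
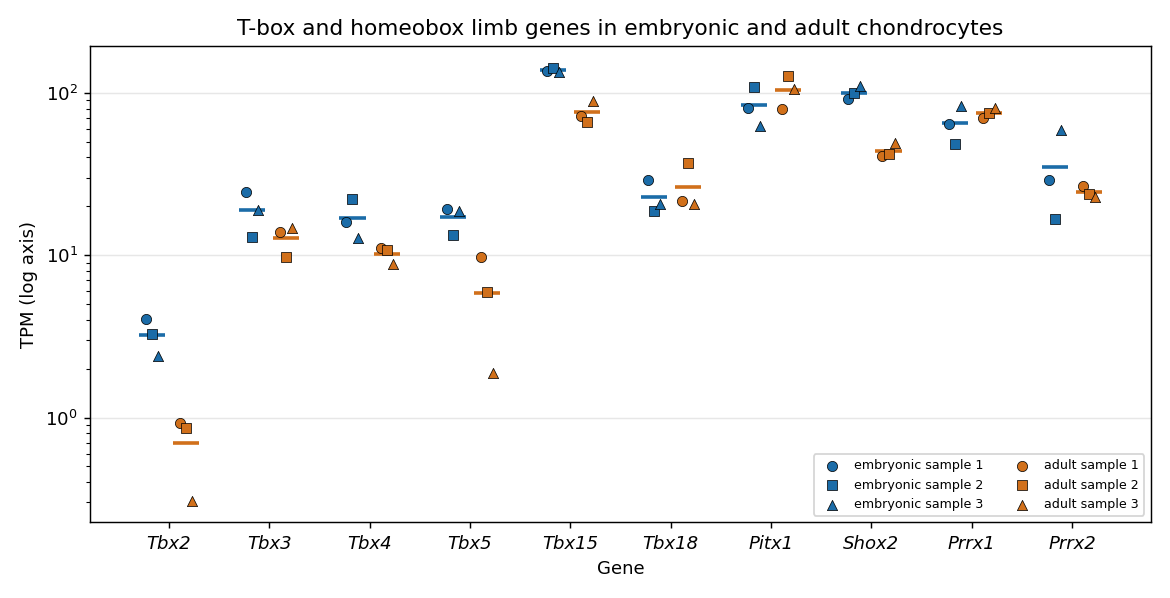
TPM of the 10 genes (log axis) in the 3 embryonic (blue) and 3 adult (orange) samples, with a symbol for each sample number and a bar at each stage mean. *Tbx15* (135 to 143 against 66.5 to 88.8 TPM) and *Shox2* (91.8 to 109.9 against 40.9 to 49.4 TPM) separate by stage, while the values of *Tbx18*, *Pitx1*, *Prrx1*, *Prrx2* and *Tbx3* overlap.

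The plot of levels by sample also shows the order of the genes within a stage. In embryonic chondrocytes it ran from *Tbx15* through *Shox2*, *Pitx1*, *Prrx1*, *Prrx2*, *Tbx18*, *Tbx3*, *Tbx5* and *Tbx4* to *Tbx2*. Only *Tbx15* and *Shox2*, and *Tbx4* and *Tbx2*, were neighbours whose values did not overlap. In adult chondrocytes the order was *Pitx1*, *Tbx15*, *Prrx1*, *Shox2*, *Tbx18*, *Prrx2*, *Tbx3*, *Tbx4*, *Tbx5* and *Tbx2*. Here the neighbours *Prrx1* and *Shox2*, *Shox2* and *Tbx18*, *Prrx2* and *Tbx3*, and *Tbx5* and *Tbx2* did not overlap. Among all genes tested, the mean level of *Tbx15* stood at percentile 89.3 in the embryonic and 80.3 in the adult samples, and that of *Tbx2* at 17.8 and 4.3.

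Of the 10 genes, 8 form 4 pairs of close relatives, so it matters whether short reads can tell them apart. Along their aligned coding sequences, identity was 70.3% for *Tbx2* and *Tbx3*, 68.4% for *Tbx4* and *Tbx5*, 69.6% for *Tbx15* and *Tbx18*, and 68.9% for *Prrx1* and *Prrx2*. The longest identical run in the 4 pairs was 14, 23, 23 and 19 bases, shorter than the 50-base reads. For 3 of the pairs, the 60-base coding stretches where their genes are most alike are shown 5′ to 3′ on the strand of the gene, from GENCODE M21 transcripts on GRCm38, with the 7 bases that differ within the pair in capitals. They lie at chr11:85833430-85833489 (+) in *Tbx2* and chr5:119672333-119672392 (+) in *Tbx3*. Those of the other two pairs shown lie at chr3:99314744-99314803 (+) in *Tbx15*, chr9:87724414-87724473 (-) in *Tbx18*, chr1:163261903-163261962 (-) in *Prrx1* and chr2:30878469-30878528 (+) in *Prrx2*.
Tbx2: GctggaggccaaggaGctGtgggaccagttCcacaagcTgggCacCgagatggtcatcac
Tbx3: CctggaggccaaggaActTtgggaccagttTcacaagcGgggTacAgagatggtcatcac
Tbx15: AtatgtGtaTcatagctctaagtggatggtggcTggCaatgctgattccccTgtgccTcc
Tbx18: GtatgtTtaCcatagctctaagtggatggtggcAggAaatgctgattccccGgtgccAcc
Prrx1: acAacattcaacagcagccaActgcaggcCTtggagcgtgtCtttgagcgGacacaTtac
Prrx2: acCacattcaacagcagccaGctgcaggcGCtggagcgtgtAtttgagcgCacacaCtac

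Over all transcripts of GENCODE M21, which may differ from the annotation behind the deposited levels, *Tbx2*, *Tbx4*, *Tbx15* and *Prrx2* had 0 windows of 50 bases in common with any other gene. *Tbx5* and *Prrx1* shared 0.37% and 0.17% of their windows with other genes, and 2 of these windows were common to both. Larger shares came with overlapping genes. *Tbx18* shared 18.25% of its windows, and 970 of its 4718 exon bases overlap D030062O11Rik on the opposite strand, a gene with no row in the matrix. *Pitx1* shared 6.79% with Gm47071 and Gm28760, which have no row either, *Shox2* 3.15% with *Rsrc1* and *Tbx3* 1.01% with Tbx3os1. Whether the reads kept their strand was not stated in the sources used here, so the levels of *Tbx18* and *Pitx1* in particular are uncertain to that extent.

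*Tbx2* and *Tbx4* lie next to each other on chromosome 11, and *Tbx3* and *Tbx5* on chromosome 5. On GRCm38, *Tbx2* (ENSMUSG00000000093) spans chr11:85832551-85841948 (+) and *Tbx4* chr11:85886422-85916097 (+), 44.5 kb apart with 1 protein-coding gene between them. *Tbx3* (chr5:119670669-119684724, +) and *Tbx5* (chr5:119832668-119885219, +) are 147.9 kb apart with 0 between. Of each linked pair, 1 gene was called lower, *Tbx2* on chromosome 11 and *Tbx5* on chromosome 5. Their neighbours *Tbx4* and *Tbx3* also had negative differences (log2 fold change -0.66 and -0.51) that were not called. Whether linked neighbours differ from each other was not tested.

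Knee cartilage is a hindlimb tissue, and the factors that tell hindlimb from forelimb were both measured. *Tbx4*, the hindlimb T-box gene, measured 16.1, 22.3 and 12.7 TPM in embryonic samples 1 to 3, and 11.1, 10.7 and 8.86 TPM in adult samples 1 to 3. The adult values all lay below the embryonic ones, but limma did not call the difference (log2 fold change -0.66, SE 0.304, adjusted p = 0.108). *Tbx5*, the forelimb counterpart, was at 19.3, 13.3 and 18.8 TPM in the embryonic and 9.78, 5.91 and 1.88 TPM in the adult samples. It was thus not absent from the embryonic samples, where its values overlapped those of *Tbx4*. The knee origin of the cells was not tested. The 3 adult samples were all lower and spread widely. *Tbx5* was lower in the adult by limma (mean 17.1 ± 3.28 against 5.86 ± 3.95 TPM, SD, n = 3; a ratio of 2.92; log2 fold change -1.58, SE 0.489, adjusted p = 0.0278). Without embryonic sample 1, 2 or 3 its adjusted p was 0.0934, 0.0553 or 0.0882, and without a filter on low values it was 0.129. *Tbx4* made up 45.5%, 62.6% and 40.4% of the sum of both genes in the embryonic and 53.1%, 64.4% and 82.5% in the adult samples, shares that overlap. Embryonic sample 2 had the highest *Tbx4*, *Pitx1* and *Tbx15* of its stage and the lowest *Tbx5*, *Tbx3*, *Tbx18*, *Prrx1* and *Prrx2*.

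*Pitx1* (chr13:55825051-55836192, -), the homeobox gene that sets hindlimb character, was at 80.1, 109 and 62.2 TPM in the embryonic and 79.6, 127 and 105 TPM in the adult samples. The stages overlapped, and *Pitx1* was the highest of the 10 genes in the adult mean. Its log2 fold change was 0.32, with a 95% interval from -0.22 to 0.86 (limma adjusted p = 0.301), so values of either sign lie within it. Another set of positional genes are the *Hox* genes, of which *Hoxc10* and *Hoxc11* are typical of hindlimb and *Hoxc4* and *Hoxc5* of forelimb levels. *Hoxc10* was at 23.7, 30.6 and 38.7 against 45.6, 48.0 and 40.7 TPM and was not called (log2 fold change 0.54, limma adjusted p = 0.0721), although its adult values all lay above. *Hoxc11* (at most 4.68 TPM) and *Hoxc4* (at most 4.2 TPM) were low in both stages, overlapped and were not called. *Hoxc5*, at 0.695, 0 and 0.531 TPM in the embryonic and 8.07, 8.29 and 15.6 TPM in the adult samples, was higher in the adult (log2 fold change 3.02, limma adjusted p = 0.000961). The annotated span of *Hoxc5* contains *Hoxc6* on the same strand in GENCODE M21, so how reads were split between them makes this value uncertain. *Hoxc6* was also higher in the adult (log2 fold change 2.25, limma adjusted p = 0.000343). Of the forelimb genes, *Tbx5* was thus lower in the adult samples and *Hoxc4* was not called. *Hoxc5* was higher, with that uncertainty about its reads.

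*Tbx2* and *Tbx3* are repressors of transcription that hold back cell cycle inhibitors and pattern the limb margins. *Tbx2* was at 4.07, 3.25 and 2.38 TPM in the embryonic and 0.927, 0.865 and 0.308 TPM in the adult samples. It was the lowest of the 10 genes in every sample, and the stages did not overlap. It was lower in the adult (mean 3.23 ± 0.847 against 0.7 ± 0.341 TPM, SD, n = 3; a ratio of 4.62; log2 fold change -1.32, SE 0.454, limma adjusted p = 0.0416). This call was lost when any of the 6 samples was left out (adjusted p = 0.0574 to 0.129) and with a pseudocount of 0.1, where the log2 fold change was larger at -2.14 (adjusted p = 0.0525). *Tbx3* was at 24.5, 13.0 and 19.1 against 13.9, 9.8 and 14.6 TPM, and its stages overlapped. Its difference was not called (log2 fold change -0.51, 95% interval -1.22 to 0.21, limma adjusted p = 0.22).

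*Tbx15* and *Tbx18* belong to the same branch of the T-box family and are known from mouse mutants with skeletal defects. *Tbx15* (chr3:99240381-99354259, +) was at 137, 143 and 135 TPM in the embryonic and 71.7, 66.5 and 88.8 TPM in the adult samples. The embryonic samples lay within a narrow band above all adult samples, and *Tbx15* was the highest of the 10 genes in each of them. It was lower in the adult (mean 138 ± 4.26 against 75.7 ± 11.7 TPM, SD, n = 3; a ratio of 1.83; log2 fold change -0.87, SE 0.149, limma adjusted p = 0.00176). *Tbx18* (chr9:87702800-87731260, -) was at 29.1, 18.6 and 20.6 against 21.6, 36.8 and 20.8 TPM. Its stages overlapped, with adult sample 2 the highest. The difference of 0.18 was not called (95% interval -0.48 to 0.85, limma adjusted p = 0.634) and was -0.07 without adult sample 2.

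*Shox2* (ENSMUSG00000027833, chr3:66971727-66981771, -) is the mouse relative of the human short stature gene *SHOX* and acts in the cartilage of the proximal limb. It was at 91.8, 99.2 and 109.9 TPM in the embryonic and 40.9, 41.8 and 49.4 TPM in the adult samples. The 2 stages lay far apart compared with the spread within each. *Shox2* was lower in the adult (mean 100.3 ± 9.09 against 44.0 ± 4.65 TPM, SD, n = 3; a ratio of 2.28; log2 fold change -1.17, SE 0.157), with the smallest adjusted p of the 10 genes (0.000462, limma). *Rsrc1*, which overlaps 153 of its 3311 exon bases on the opposite strand, was at 64.4 to 87.1 TPM in the embryonic and 48.0 to 110 TPM in the adult samples, which overlapped. RefSeq promoters were matched for 5 of the 10 genes, and that of *Shox2* is shown because this gene had the smallest adjusted p. The 250 bases before its start are at chr3:66981772-66982021 on GRCm38.p6, minus strand, printed 5′ to 3′. A match to the letters TATAAA is in capitals and lies in the part of the window far from the start.
Shox2: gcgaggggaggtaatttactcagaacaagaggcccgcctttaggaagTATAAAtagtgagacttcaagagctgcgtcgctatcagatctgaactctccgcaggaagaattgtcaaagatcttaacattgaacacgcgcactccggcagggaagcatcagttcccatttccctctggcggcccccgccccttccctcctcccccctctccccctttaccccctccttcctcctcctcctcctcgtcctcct

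The search covered both strands for the letters TATAAA, for the homeodomain core TAATTA and for the T-box site GGTGTGA. None of the 5 windows held more than 1 match, so matches could not overlap. Of 32851 promoters of the same length, 12.37% held TATAAA, 4.84% TAATTA and 3.33% GGTGTGA. The *Shox2* window held 1 TATAAA, 11 CpG and 55.6% GC, against medians of 6 CpG and 52.4% GC. Among the other matched promoters, that of *Tbx4* held 1 TATAAA on the reverse strand and that of *Prrx1* 1 TAATTA, those of *Tbx18* and *Prrx2* held none of the letters searched, and GGTGTGA was in 0 of the 5. The *Tbx4* and *Prrx2* windows lie inside the annotated span of their gene. All 250 bases of the *Prrx2* window and 60 of the *Prrx1* window are exon of the same gene. All 250 bases of the *Tbx18* window lie in an exon of D030062O11Rik on the opposite strand. A match is a string of letters in this window and was not tested as a binding site.

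*Prrx1* and *Prrx2* are paired-type homeobox genes of early limb mesenchyme, and *Prrx1* is widely used to mark it. *Prrx1* (chr1:163245119-163313710, -) was at 64.3, 48.7 and 82.6 TPM in the embryonic and 70.2, 74.6 and 81.0 TPM in the adult samples. The adult values lay inside the embryonic range, and the difference was not called (log2 fold change 0.24, 95% interval -0.23 to 0.70, limma adjusted p = 0.371). *Prrx2* (chr2:30834972-30881251, +) was at 29.0, 16.7 and 59.1 against 26.5, 23.9 and 22.7 TPM. Embryonic sample 3 was far above the other two of its stage, and the adult samples sat close together within the embryonic range. The difference of -0.33 was not called (95% interval -1.22 to 0.57, limma adjusted p = 0.522) and was 0.13 without embryonic sample 3.

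**Figure D2:**
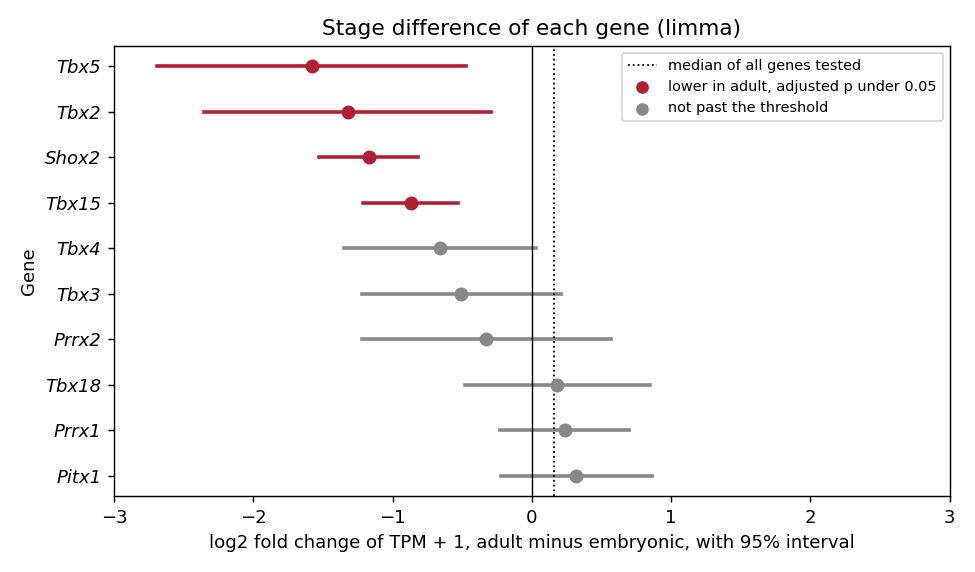
Log2 fold change of TPM + 1 (adult minus embryonic) of each gene with its 95% interval from limma, called genes in red, and the median of all genes tested (0.16) as a dotted line. The intervals of *Tbx5*, *Tbx2*, *Shox2* and *Tbx15* lie below 0, and that of *Tbx4* ends at 0.03.

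The plot of stage differences sets the precise calls beside the imprecise ones. *Shox2* and *Tbx15* have the narrowest intervals (-1.53 to -0.82 and -1.21 to -0.53), and both stayed called in all 15 alternative analyses. *Tbx5* and *Tbx2*, with the larger fold changes, have intervals from -2.69 to -0.47 and from -2.35 to -0.29. They stayed called in 11 of 15 and in 6 of 14 alternatives. Left out 1 at a time, each of the 3 embryonic samples took the count of genes called lower from 4 to 2.

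Since related genes can share a role, the level of each gene relative to its relative in the same sample was compared between stages, which is unaffected by the scaling of a sample as long as both genes are well above 1 TPM. *Tbx15* exceeded *Tbx18* by 2.20, 2.88 and 2.66 on the log2(TPM + 1) scale in the embryonic samples and by 1.68, 0.84 and 2.04 in the adult samples. Each adult gap was smaller than each embryonic gap, and the difference was -1.06 (exact two-sided permutation p = 0.1, the smallest that 3 against 3 samples can give). The difference was -0.71 without adult sample 2. After quantile normalization it was -0.84 (exact permutation p = 0.2), so the gaps then overlapped. The *Tbx4* over *Tbx5* gap was -0.25, 0.70 and -0.53 against 0.16, 0.76 and 1.78, with a difference of 0.92 (exact permutation p = 0.2) that was 0.49 without adult sample 3. The *Tbx2* over *Tbx3* gap averaged -2.21 ± 0.44 and -3.02 ± 0.53 (SD, n = 3), and that of *Prrx1* over *Prrx2* 1.03 ± 0.51 and 1.59 ± 0.21, each with an exact permutation p = 0.2. The difference for *Tbx2* over *Tbx3* was -0.81, and it was -0.53 without adult sample 3 and -1.61 with a pseudocount of 0.1. That for *Prrx1* over *Prrx2* was 0.56, and 0.29 without embryonic sample 3. Adjusted over the 4 pairs, every exact p was 0.2. The exact test cannot reach 0.05 with 3 against 3 samples, so these values are a description and leave the question of unequal change unanswered.

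**Figure D3:**
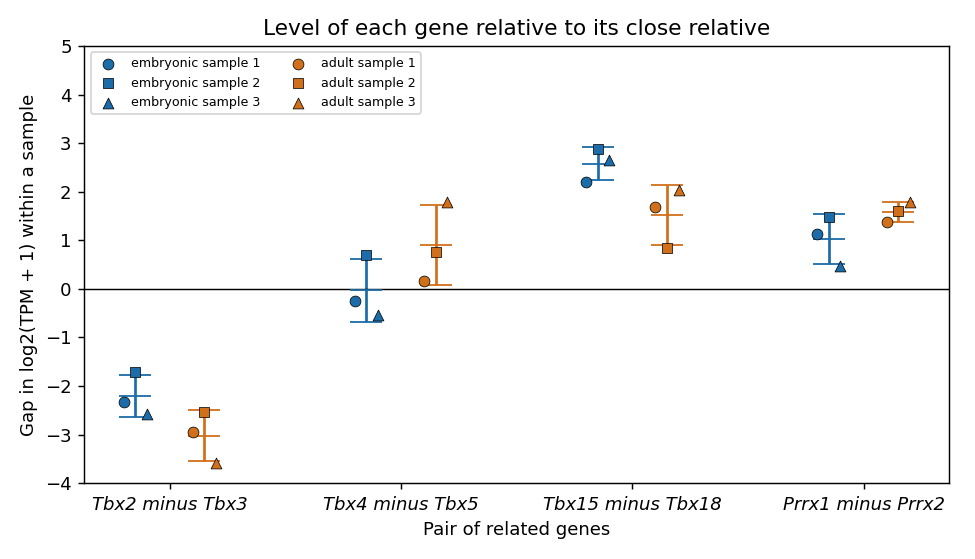
Gap in log2(TPM + 1) between the genes of each pair within a sample, embryonic in blue and adult in orange, with bars for the mean and SD of 3 samples. The *Tbx15* minus *Tbx18* gaps do not overlap between stages (2.20 to 2.88 against 0.84 to 2.04), and those of the other 3 pairs do.

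The plot of gaps shows overlapping stages for 3 of the 4 pairs, but which pairs overlapped depended on the setting. *Tbx2* over *Tbx3* separated with a pseudocount of 0.1 and without the 20 highest genes (exact permutation p = 0.1 in each). *Prrx1* over *Prrx2* separated after quantile normalization (exact permutation p = 0.1). Of the T-box and paired-type genes outside the 10, few were expressed. Only 2 of the 11 other T-box genes passed the filter on low values. *Mga*, a large T-box protein that also binds the MYC partner MAX, was at 63.6 to 74.2 TPM in the embryonic and 90.0 to 93.7 TPM in the adult samples and was higher in the adult (log2 fold change 0.44, limma adjusted p = 0.0309). *Tbx6* was not called. Among 9 other paired-type genes only *Gsc* was tested, with 0.982, 5.10 and 3.49 TPM in embryonic samples 1 to 3, and listed at 0 in all 3 adult samples (limma adjusted p = 0.0208, lower).

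Limb bud transcription factors, which work beside these genes in patterning, moved both ways. Of 28, 23 were tested, with 6 higher and 6 lower in the adult (26.1% each, against 23.9% and 21.4% of all genes) and a median of 0.13. The 6 lower were *Osr2*, *Twist1*, *Twist2*, *Osr1*, *Gli3* and *Pbx3*. *Osr2*, a zinc finger gene of joint and tendon territories, was the furthest below (117, 122 and 128 against 10.9, 20.3 and 13.0 TPM; log2 fold change -3.01, limma adjusted p = 2.48e-05). *Twist1*, a basic helix-loop-helix factor of mesenchyme, was at 146, 115 and 119.8 against 44.0, 44.0 and 22.4 TPM (-1.82, limma adjusted p = 0.000722). *Gli3*, a mediator of Hedgehog signalling, was at 81.8 to 95.4 against 30.9 to 35.5 TPM (-1.42, limma adjusted p = 0.000173). The 6 higher were *Msx1*, *Dlx5*, *Irx3*, *Lhx2*, *Dlx6* and *Pbx2*. *Msx1*, a homeobox gene of the distal bud, was at 0.952, 3.51 and 1.61 against 35.2, 36.6 and 15.4 TPM (3.31, limma adjusted p = 0.000659). *Dlx5*, a homeobox gene that promotes chondrocyte and osteoblast maturation, was at 8.24, 3.17 and 4.99 against 43.1, 51.4 and 44.3 TPM (2.94, limma adjusted p = 0.000181). Most genes tested in this list are homeobox genes, and so are all 6 higher genes, among them *Pbx2* at 1.00. Of the 6 lower, only *Pbx3*, at -1.27, is a homeobox gene. The other homeobox genes tested in this list were not called. Homeobox genes were not a list set in advance, and a difference between them and the rest was not tested.

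Of 19 signals, receptors and related genes of the limb bud, 8 were lower in the adult, 2 were higher, 3 were not called and 6 were too low to be tested. Of the 13 tested, 8 were lower (61.5%, against 21.4% of all genes) and 2 higher (15.4%, against 23.9%), and a median of -1.05. *Fgf10*, the growth factor that T-box genes switch on to start limb outgrowth, was at 10.9, 8.21 and 13.9 TPM in the embryonic and 0.500, 0.135 and 0.107 TPM in the adult samples (log2 fold change -3.25, limma adjusted p = 0.00041). Its receptor *Fgfr2* was at 114 to 159 against 48.7 to 85.9 TPM (-1.05, limma adjusted p = 0.00612), and *Fgfr1* was lower by less (-0.35, limma adjusted p = 0.0469). *Bmp4*, a ligand of the BMP family to which the sorted receptor BMPR1B responds, was at 148, 131 and 121 against 15.7, 17.4 and 15.3 TPM (-2.97, limma adjusted p = 4.23e-06). Also lower were *Rspo2* (-2.62), *Bmp7* (-2.14), *Ptch1* (-1.16) and *Wnt5a* (-1.55), the last with overlapping stages. *Bmp2* (0.52, limma adjusted p = 0.0241) and *Cyp26b1*, which breaks down retinoic acid (20.7 to 31.7 against 119 to 149 TPM; 2.40, limma adjusted p = 3.37e-05), were higher. *Shh* and *Fgf4*, signals of the early bud margin, were listed at 0 in all 6 samples.

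**Figure D4:**
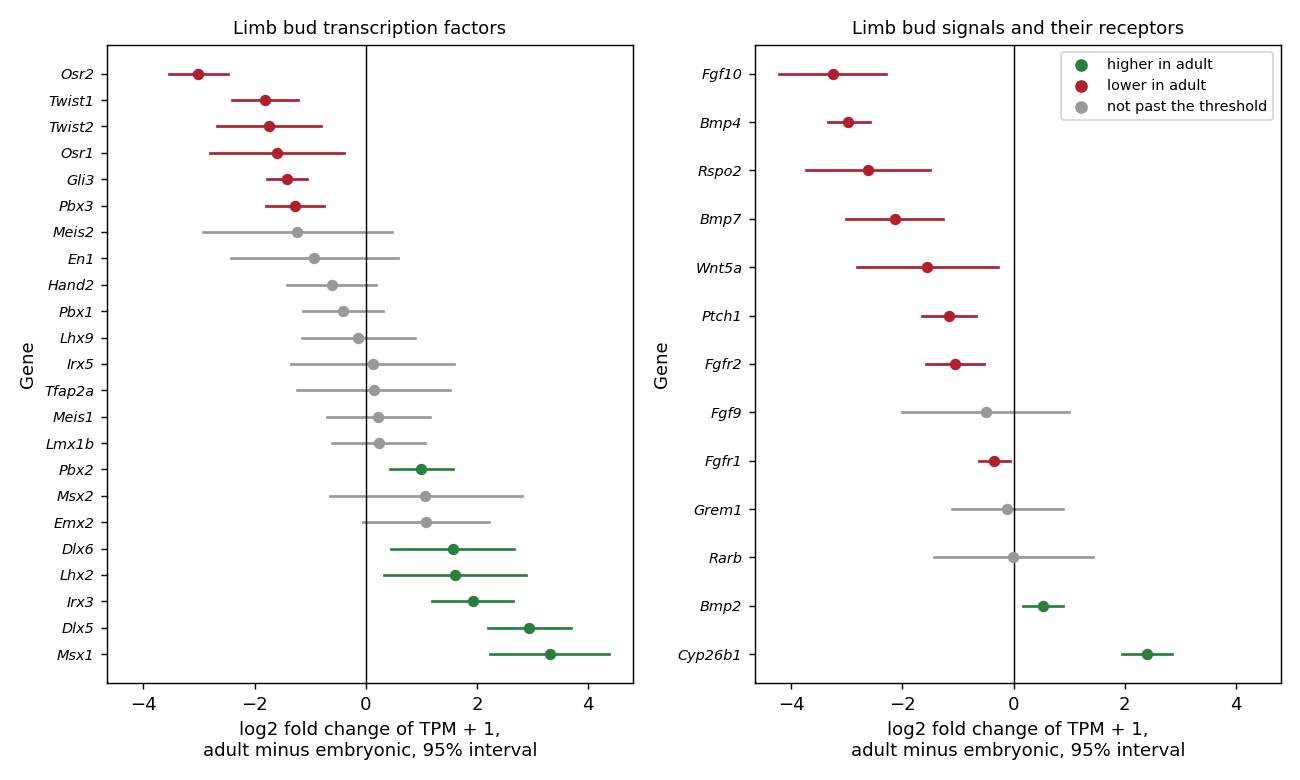
Log2 fold change of TPM + 1 (adult minus embryonic) with 95% intervals from limma for the 23 tested limb bud transcription factors (left) and the 13 tested signals and receptors (right), coloured by call. The factors split 6 lower and 6 higher, and the signals and receptors 8 lower and 2 higher.

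The plot of both lists shows each tested gene with its interval, and the difference between the lists was not tested. Of 7 genes described as targets of the 10 factors, 6 were tested, with 3 of these 6 lower (against 21.4% of all genes), 1 of 6 higher (against 23.9%) and a median of -1.85. The lower genes were *Tnc* and, already counted among the signals, *Fgf10* and *Bmp4*, and the higher gene was *Cdkn1a*. *Tnc*, the matrix protein tenascin C, was at 596, 575 and 522 against 7.66, 43.8 and 50.7 TPM (-4.38, limma adjusted p = 0.00041). *Cdkn1a*, a cell cycle inhibitor that *Tbx2* and *Tbx3* repress, was at 203 to 261 against 371 to 609 TPM (1.00, limma adjusted p = 0.00311). *Cdkn2a*, another such inhibitor, was listed at 0 in every embryonic sample, measured 0, 4.79 and 3.78 TPM in adult samples 1 to 3, and was not called (limma adjusted p = 0.0955). Over the 76 genes of all these lists together, 47 were tested, 11 were higher (23.4%, against 23.9% of all genes) and 16 lower (34.0%, against 21.4%), and the median was -0.14. Without adult sample 2, 7 were higher, and without embryonic sample 3, 12 were lower. The lower level of *Tbx2* and the higher level of *Cdkn1a* stand side by side in these samples, and a link between them was not tested.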

How the data were processed

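RNA was measured in sorted BMPR1B+ chondrocytes of the mouse knee, 3 embryonic and 3 adult samples. Per the labels and the methods of the study, the authors mapped single-end 50-base reads to GRCm38, estimated gene levels with RSEM (version not given in the sources used here) and deposited log2(TPM + 1), named by Ensembl identifier. The labels and the methods name different library kits. The deposited log2 values carry no depth, so precision rests on the spread between 3 samples.

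Symbols came from GENCODE M21, which matched 21902 of the 22032 identifiers. limma 3.58.1 (R 4.3.3; lmFit, eBayes with trend) was fitted to all genes whose mean reached 1 TPM, without covariates, and p-values were adjusted by Benjamini-Hochberg over these genes. The authors' tool needs counts and was not used. Gaps between paired genes were compared by exact permutation (scipy 1.17.1). Coding sequences were aligned with Biopython 1.88. The fit was tested on simulated data. The 10 genes and the lists were chosen with earlier results of these data known. All 10 genes are named, and of a list the genes past the threshold, *Fgf10* and the 4 *Hox* genes. *Tbx6*, *Cdkn2a*, *Shh* and *Fgf4*, and the marker genes and overlapping genes, were named after their values were seen. Alternatives were a pseudocount of 0.1, 2 filters, 3 scalings, variance models, a replicate block, a threshold of 0.01 and each sample left out. A marker list and a pair of sequences are not reported here.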

Additional observations from a re-analysis of the deposited data

How the results depend on the processing

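With 1 sample left out, 2 to 3 of the 10 genes were called lower in place of 4. Of the pathway list genes 7 to 11 were then higher in place of 11, the 7 without adult replicate 2, and 12 to 16 lower in place of 16. At an adjusted p under 0.01, 2 of the 10 genes were lower and 6 list genes higher. With 1 sample left out *Tbx18* ranged from -0.07 (without adult replicate 2) to 0.36, and *Prrx2* from -0.75 to 0.13 (without embryonic replicate 3), neither called. The cause was not tested. Deviations of samples with the same number correlated at -0.022 to -0.009, so the numbers do not pair them. With the replicate block, 3 of the 10 genes were lower and 0 higher, and *Tbx2* was no longer called (limma adjusted p = 0.0787). Of the list genes, 15 were lower and 8 higher under the block. Under the other scalings the 10 genes kept the signs of their differences. After median-of-ratios scaling 2614 genes were higher and 3243 lower over all genes, against 3140 and 2809. The exact test could not call a gap between paired genes. With 3 samples a stage and values that carry no depth, intervals about as wide as those of *Prrx2* and *Tbx3* leave differences of either sign undetected, and values near or under 1 TPM, as for adult *Tbx2*, are the least certain.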
